A study of Mus musculus with 6 samples.

Results

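Phospholipase C (PLC) enzymes were examined in aortic endothelial cells (EC) through 8 genes, the beta isoforms Plcb1, Plcb2, Plcb3 and Plcb4, the gamma isoforms Plcg1 and Plcg2, and the delta isoforms Plcd1 and Plcd3. The genes were taken by symbol from a table of 54429 genes. They were chosen by measured values of these data: the Plcb2 counts of Meis1-overexpressing (Meis1-OE) EC stood far above those of the control. The Plcb2 difference between the conditions is therefore given as a description without a test. The other 7 genes belong to the same family and were tested with all other genes.

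The cells were primary aortic EC of adult wild-type C57BL/6 mice, transduced with a lentiviral Meis1-OE vector or with the control vector YFP-CTRL, and are called Meis1-OE EC and control EC. Each condition had 3 libraries, from replicates that the study describes as independent. Per well 100000 cells were plated, transduction ended after 48 h, and YFP+CD31+VEC+ cells, which all carried a vector, were sorted at 72 h, re-plated and grown to confluency before total RNA of 300000 cells was taken. The promoter that drives Meis1 in the vector is not given in the sources used here, and the cells form one bulk culture per library, so more cells of a type and more RNA per cell cannot be told apart.

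PLC enzymes cleave the membrane lipid PIP2 into IP3, which releases calcium from internal stores, and diacylglycerol (DAG), which activates protein kinase C. The beta isoforms are switched on by G proteins of the Gq class and by G beta-gamma subunits below receptors such as those for thrombin and histamine. The gamma isoforms are recruited to tyrosine kinases, and Plcg1 works below the VEGF receptor in endothelium. Plcb2 and Plcg2 are known mainly from blood cells, and the delta isoforms respond to calcium itself.

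The genes are spread over the genome, and 4 of the 8 lie on chromosome 2. In the mouse build GRCm38.p6, Plcb2 spans chr2:118705003-118728661 on the minus strand. Plcb1 (chr2:134786164-135475258) and Plcb4 (chr2:135658603-136014602) are separated by 183344 bases. Plcg1 lies at chr2:160731310-160775760, Plcb3 at chr19:6953708-6975006, Plcg2 at chr8:117498275-117635142, Plcd1 at chr9:119071527-119093502 and Plcd3 at chr11:103070296-103101710. In the RefSeq annotation, 6 of the 8 overlap another annotated gene, among them Plcg1, which shares 5314 bases with Zhx3. No source says that strand was used in counting, so reads of such overlaps cannot be assigned with certainty. Plcb2 and Plcg2 overlap no other annotated gene, and every count of the 8 genes lay within 0.002 of a whole number.

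All 8 genes had a start-site window in RefSeq, of 250 bases before and 50 bases after an annotated transcript start (10 windows, as Plcb4 and Plcd1 have 2 starts each). These were searched on both strands for 5 short motifs, because Meis1 binds DNA with Pbx and Hox partners and ETS and Runx factors act in blood and endothelium. The motifs were chosen after the data had been seen, and TGATTTA after the Plcb2 window had been read. The windows that held a Meis core TGACAG, a Hox-Pbx type TGATTTA or, in Plcb2, an ETS core AGGAAGT are printed here with the matched letters in capitals, on the strand of the gene and within 30 bases each.
Plcb2 Hox-Pbx type, chr2:118728527-118728556, minus strand: gaggaggaggcTGATTTAcaaggcagatca
Plcb2 ETS, chr2:118728639-118728668, minus strand: aagcccagagcAGGAAGTgctgaggcaggg
Plcg1 Meis (reverse complement), chr2:160731195-160731224, plus strand: gtggcaggcgtgCTGTCActcacggcctgt
Plcd1 Meis, chr9:119093706-119093735, minus strand: agctcgccgtaaTGACAGggcctgtgggtg
The Plcb2 window is built on a transcript start at position 118728438, which lies 223 bases inside the span of the gene, so another annotated transcript begins further upstream. Counted from the start of the window's own transcript, the TGATTTA match began 107 bases and the AGGAAGT match 219 bases upstream. The matched letters of both lie within the gene's span, and only flanking letters of the printed AGGAAGT stretch reach beyond it. TGATTTA was found in 2.97% of all 32851 windows and AGGAAGT in 9.35%, which was also matched at 1 of the starts of Plcd1. TGACAG was found in 19.2% of all windows, and in those of Plcg1 and Plcd1. A 10-letter Meis-Pbx composite (0.222% of windows) and the Runx core TGTGGT (16.8%) had no match in any of the 10 windows. These matches are letters in a window and were not tested as binding sites.

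Values of single libraries are given in the order A, B and C, and means are given ± SD over the 3 libraries of a condition. Library totals ran from 34176592 to 47956569 counts. Meis1 was at 3220 ± 258 CPM (counts scaled by the TMM-adjusted library size) in Meis1-OE EC and 1.48 ± 0.365 CPM in control EC. The YFP-CTRL libraries were not alike. A proliferation score, the mean log2(CPM + 1) of 15 S and G2/M phase genes, was 4.25, 5.24 and 6.42 in the control cultures, and 6.46, 6.46 and 6.49 in the Meis1-OE cultures. YFP-CTRL library C was thus close to the Meis1-OE libraries in this score, and results are given with and without it where it changes them. A fit with the score as covariate takes its slope almost wholly from the 3 YFP-CTRL libraries, since the Meis1-OE libraries hardly differed in score. The difference between conditions in such a fit leans on YFP-CTRL library C, the control nearest in score. Of the 16065 genes that passed the filter on low counts, 665 (4.14%) were higher and 438 (2.73%) lower in Meis1-OE EC by edgeR's quasi-likelihood test (Benjamini-Hochberg adjusted p under 0.05), together 6.87%. Scaled to library totals alone, the split was 1048 higher and 179 lower, since all tested genes then had a median log2 fold change of 0.15.

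Plcb2 was close to absent in control EC and present in every Meis1-OE library. It was counted 559, 902 and 946 times in the Meis1-OE cultures, and 7, 5 and 7 times in the control cultures. In normalized units this was 12.2, 19.9 and 20.4 CPM against 0.206, 0.123 and 0.154 CPM. The lowest Meis1-OE library lay far above the highest YFP-CTRL library, and Meis1-OE library A was below the other two.

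The fitted difference for Plcb2 was 6.76 on the log2 scale, or 108-fold, and ranged from 6.61 to 6.96 over the 13 alternative fits that gave a value. The 95% Wilson interval of YFP-CTRL library B, with the fewest counts, was 0.0479 to 0.263 CPM of the total count and covers counting error only. YFP-CTRL library C, whose proliferation score was close to those of the Meis1-OE libraries, had 7 counts of Plcb2. With the score as a covariate the log2 difference was 6.94.

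**Figure D1:**
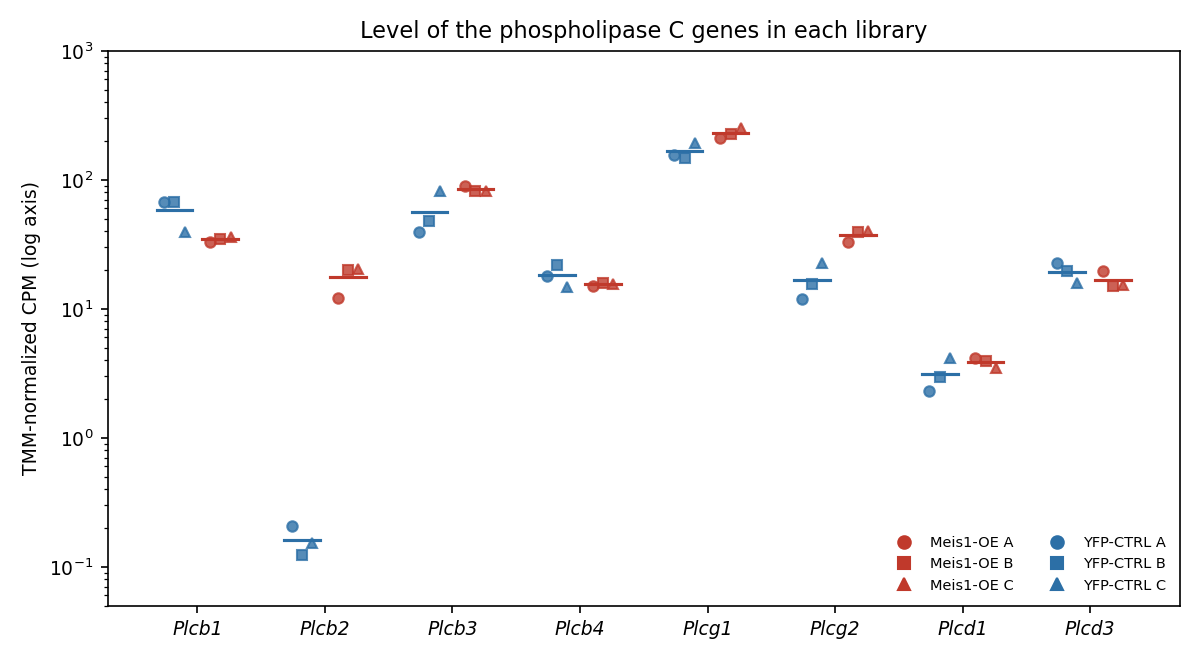
TMM-normalized CPM (log axis) of the 8 phospholipase C genes in 3 Meis1-OE libraries (red) and 3 YFP-CTRL libraries (blue), with a line at each mean. Plcb2 lies between 0.123 and 0.206 CPM in YFP-CTRL EC and between 12.2 and 20.4 CPM in Meis1-OE EC, while the other 7 genes are counted in both conditions.

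All 8 genes passed the filter on low counts, Plcb2 only through the Meis1-OE libraries. Of the 7 genes other than Plcb2, 1 rose (Plcg2) and 0 fell at an adjusted p under 0.05 from edgeR's quasi-likelihood test, against 4.14% and 2.73% (6.87% in either direction) of all genes tested. At an unadjusted p under 0.05 these counts were 2 and 1, against 12.8% and 13.4% of all genes tested. DESeq2 called 1 higher and 1 lower, against 6.21% and 6.14% of the 18158 genes it tested. The CPM of all Meis1-OE libraries lay above those of all YFP-CTRL libraries for 2 of the 7 (17.2% of all genes tested) and below them for 1 (15.9% of all genes tested). The median log2 fold change of the 7 was 0.29, against 0.01 for all tested genes.

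Plcg2, the gamma isoform of B cells, platelets and myeloid cells, was the gene that rose. It was at 32.8, 39.3 and 39.9 CPM in the Meis1-OE cultures and at 12.0, 15.6 and 22.5 CPM in the control cultures. The groups did not overlap, and YFP-CTRL library C was the highest of its group. The log2 fold change was 1.16 (standard error 0.23, edgeR adjusted p = 0.0326), or 2.23-fold. Without Meis1-OE library A, B or C the adjusted p from edgeR was 0.0844, 0.154 and 0.145, and without YFP-CTRL library B it was 0.128. In these 4 fits the genes called higher among all genes tested also became fewer, at 329, 115, 126 and 204 against 665. The log2 fold change of Plcg2 stayed between 1.11 and 1.25 in these fits. With the proliferation score as covariate the log2 fold change was 0.72, still past the threshold (edgeR adjusted p = 0.0458).

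Plcg1, the gamma isoform found in most cells, had the highest mean CPM per kb of exon of the 8 genes. It was at 211, 225 and 251 CPM in the Meis1-OE cultures and at 156, 148 and 194 CPM in the control cultures, without overlap. Its log2 fold change of 0.46 (standard error 0.14) had an edgeR adjusted p of 0.0914. It was 0.58 without YFP-CTRL library C (edgeR adjusted p = 0.00610) and 0.60 on library totals (edgeR adjusted p = 0.0401), of which the shift of all genes made up 0.15. With the proliferation score as covariate it was 0.29 (edgeR adjusted p = 0.328).

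Among the beta isoforms, Plcb1 and Plcb3 had differences of opposite sign that did not pass the threshold. Plcb1, a widely expressed isoform activated by Gq, was at 32.9, 34.7 and 35.7 CPM in the Meis1-OE cultures and at 67.4, 67.8 and 39.1 CPM in the control cultures. All Meis1-OE libraries were below all YFP-CTRL libraries, by little in the case of YFP-CTRL library C. Its log2 fold change was -0.75 (standard error 0.21, edgeR adjusted p = 0.0795, 0.0219 from DESeq2). It was -0.98 without YFP-CTRL library C (edgeR adjusted p = 0.000791) and -0.29 with the score as covariate (edgeR adjusted p = 0.412).

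Plcb3, a widely expressed beta isoform, was at 89.3, 81.3 and 82.1 CPM in the Meis1-OE cultures. In the control cultures it was at 39.0, 48.1 and 81.6 CPM, so that YFP-CTRL library C lay among the Meis1-OE libraries. Its log2 fold change was 0.58 (standard error 0.26, edgeR adjusted p = 0.206). Without YFP-CTRL library C it was 0.94 (edgeR adjusted p = 0.00340), and in the fit with the proliferation score it was 0.07 (edgeR adjusted p = 0.805). The part of proliferation in the Plcb1 and Plcb3 values was not tested beyond this covariate.

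Plcb4, a beta isoform best known from neurons, was counted 686, 721 and 718 times in the Meis1-OE cultures and 611, 889 and 675 times in the control cultures, or 15.5 ± 0.440 and 18.2 ± 3.47 CPM. Its log2 fold change was -0.24 with an edgeR adjusted p of 0.394. The delta isoforms also overlapped between conditions. Plcd1 was at 3.86 ± 0.334 CPM in Meis1-OE EC against 3.14 ± 0.933 CPM in control EC, and Plcd3 at 16.7 ± 2.49 and 19.5 ± 3.43 CPM. Their log2 fold changes were 0.29 and -0.22, with edgeR adjusted p-values of 0.492 and 0.466, and both changed sign with the score as covariate, to -0.11 and 0.07.

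**Figure D2:**
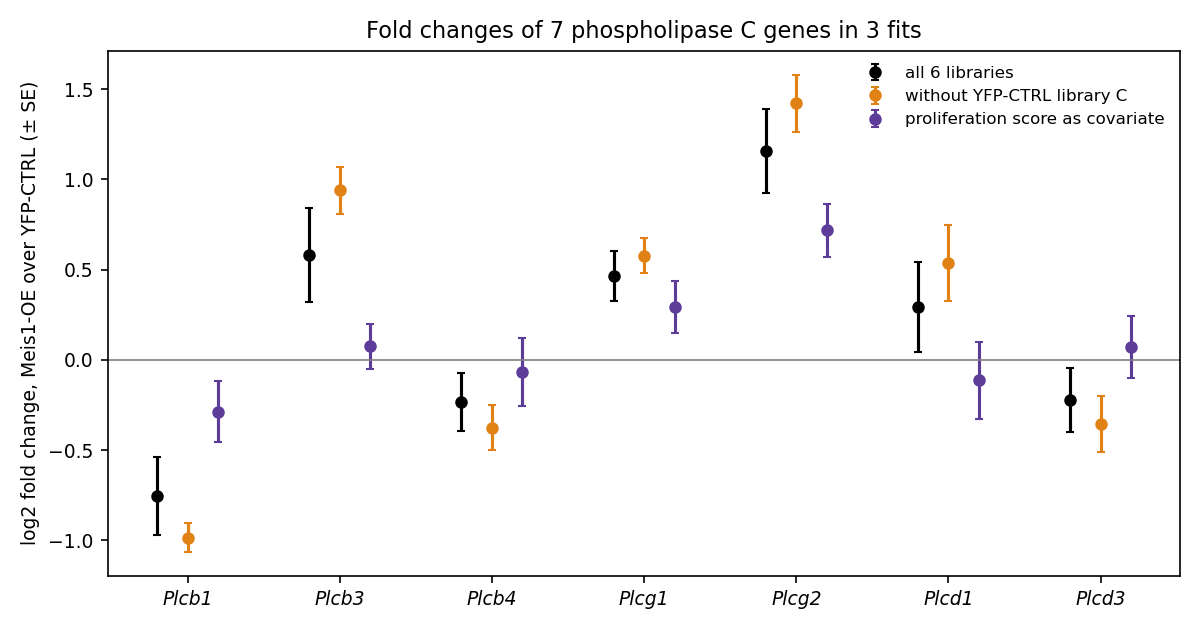
Log2 fold change of Meis1-OE over YFP-CTRL EC (± standard error, edgeR) of the 7 phospholipase C genes other than Plcb2, in fits of all 6 libraries (black), without YFP-CTRL library C (orange) and with the proliferation score as covariate (purple). Plcg2 stays at 0.72 or more in the 3 fits, while Plcb3 runs from 0.07 to 0.94.

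The spread of the YFP-CTRL libraries had the order of the proliferation score for several of these genes. Their total counts (34176592, 44582563 and 47956569) and the share of counts from the gene Gm26917 (11.8%, 13.0% and 14.1%) had that order too. With 3 control libraries these cannot be told apart from the score. In the Meis1-OE cultures the share of Gm26917 was 8.06%, 9.31% and 10.5%, below that of every YFP-CTRL library. Its part in the PLC results was not tested. Plcb3, Plcg2 and Plcd1 were lowest in YFP-CTRL library A, which had the lowest score, and highest of the controls in library C, which had the highest. Plcd3 had the opposite order, at 22.8, 19.7 and 15.9 CPM in the control cultures. At the score of the Meis1-OE libraries, YFP-CTRL library C was within their range for Plcb3 and Plcd3, at their upper edge for Plcd1 (4.16 CPM, as in Meis1-OE library A), close to them for Plcb1 and Plcb4, and below them for Plcb2, Plcg1 and Plcg2.

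**Figure D3:**
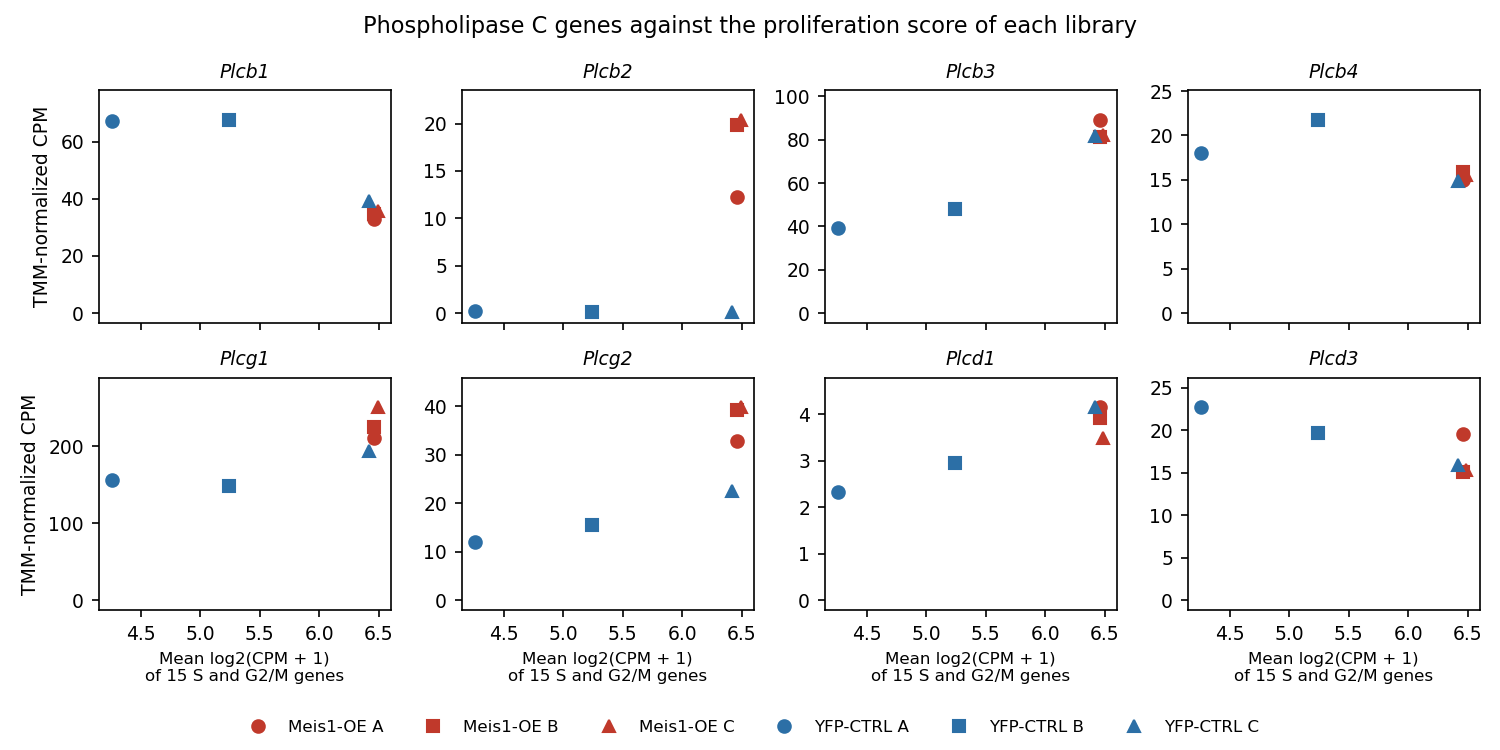
TMM-normalized CPM of each phospholipase C gene (vertical axes) against the proliferation score of the library, the mean log2(CPM + 1) of 15 S and G2/M phase genes (horizontal axes), for 3 Meis1-OE (red) and 3 YFP-CTRL (blue) libraries. YFP-CTRL library C, at a score of 6.42, sits with the Meis1-OE libraries for Plcb3 and Plcd1 and below them for Plcb2 and Plcg2.

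To compare levels between genes, CPM were divided by the summed exon length of each gene in kilobases. In control EC the order of mean level was Plcg1 (21.2 CPM per kb), Plcb3 (13.3), Plcb1 (6.69), Plcd3 (5.73), Plcg2 (3.89), Plcb4 (2.03), Plcd1 (1.19) and Plcb2 (0.0244). The ranges over the 3 libraries overlapped between Plcg1 and Plcb3, between Plcb1 and Plcd3 and between Plcd3 and Plcg2. In Meis1-OE EC the order was Plcg1 (29.2 CPM per kb), Plcb3 (19.9), Plcg2 (8.69), Plcd3 (4.91), Plcb1 (3.96), Plcb2 (2.65), Plcb4 (1.72) and Plcd1 (1.46), with no overlap between neighbours. Plcb2 moved from the last place to the sixth, and Plcg2 from the fifth to the third. With the longest transcript as the length, the order of the means was the same in both conditions, but other neighbours overlapped. In Meis1-OE EC these were Plcd3 and Plcb1, and Plcb2 and Plcb4. In control EC they were Plcb3 and Plcb1, Plcb1 and Plcd3, and Plcg2 and Plcb4, while Plcg1 and Plcb3 were then separate.

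Plcb2 thus took up a small part of the PLC beta transcripts. Its share of the summed CPM per kb of the 4 beta genes was 6.52%, 10.8% and 10.9% in the Meis1-OE cultures, and 0.164%, 0.0859% and 0.0916% in the control cultures. With the summed exon length, Plcb3 held the largest share in every library, at 70.5% ± 3.31 in Meis1-OE EC and at 48.5%, 52.6% and 75.7% in the control cultures. Plcb1 held 13.3%, 14.3% and 14.5% in Meis1-OE EC and 40.8%, 36.1% and 17.7% in the control cultures. The lead of Plcb3 over Plcb1 depended on the length in the controls. With the longest transcript Plcb1 led in YFP-CTRL library A (43.1% against 41.3%), and without division by length it led in YFP-CTRL libraries A and B (54.1% against 31.3%, and 49.2% against 34.9%). Plcb4 held 6.10% ± 0.219 and 9.43% ± 2.56 with the summed exon length. The sum of the 4 genes was 28.2 ± 0.224 CPM per kb in Meis1-OE EC and 22.04 ± 3.25 in control EC. Without Plcb2, the sum of the 3 others in YFP-CTRL library C (25.5 CPM per kb) was within the range of the Meis1-OE libraries (25.0 to 26.6). Among all 8 genes, Plcb2 made up 3.65% ± 0.875 in Meis1-OE EC and no more than 0.0633% in any control library.

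**Figure D4:**
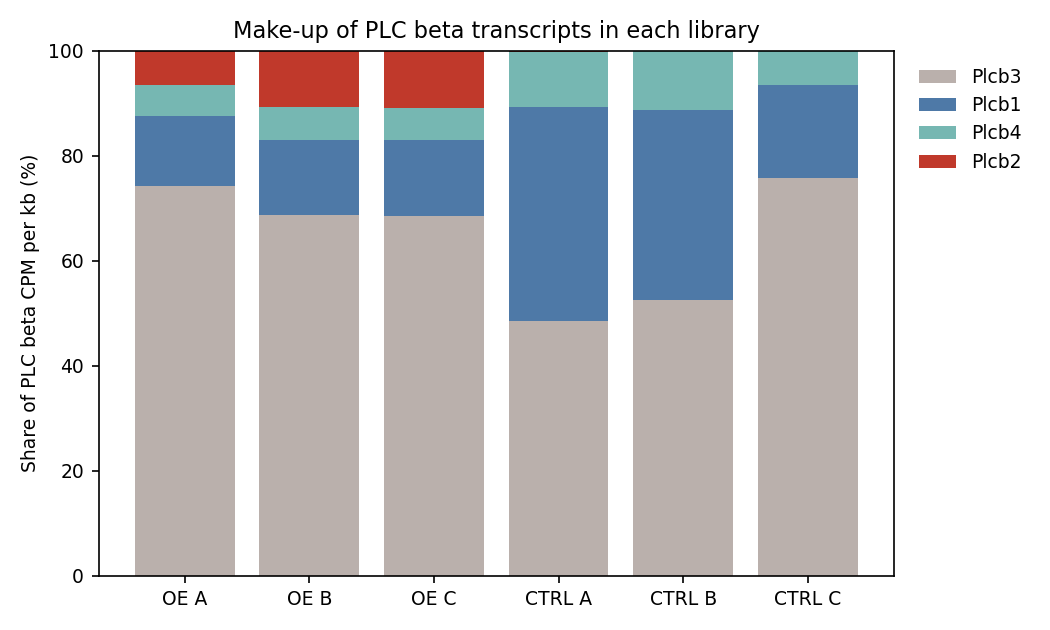
Share (%) of each beta isoform in the summed CPM per kb of Plcb1, Plcb2, Plcb3 and Plcb4, for each Meis1-OE (OE) and YFP-CTRL (CTRL) library. Plcb2 (red) is visible in the 3 Meis1-OE libraries, at 6.52% to 10.9%, and YFP-CTRL library C has a Plcb3 share of 75.7%, above those of YFP-CTRL libraries A and B.

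Ratios of 2 isoforms within a library do not depend on the scaling between libraries. The 4 pairs were chosen after the values had been seen. The ratio of Plcg2 to Plcg1, in CPM per kb, was 0.285, 0.319 and 0.290 in the Meis1-OE cultures and 0.140, 0.192 and 0.212 in the control cultures. That of Plcb3 to Plcb1 was 5.58, 4.81 and 4.72 against 1.19, 1.46 and 4.28, and that of Plcb4 to Plcb1 was 0.435 ± 0.0128 against 0.312 ± 0.0547. For these 3 ratios the values of the conditions did not overlap, and those of Plcd1 to Plcd3 did. No test is given, since the pairs were chosen for their values.

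Of the remaining 7 PLC and PLC-like genes, 2 passed the filter. Plcl2, which binds IP3 but lacks PLC activity, was at 5.06 ± 0.0948 CPM in Meis1-OE EC against 7.18 ± 0.769 CPM in control EC, a log2 fold change of -0.50 with an edgeR adjusted p of 0.0980. Plcd4 was at 0.429 ± 0.0689 and 0.377 ± 0.0972 CPM, with a log2 fold change of 0.18 and an edgeR adjusted p of 0.775. Plce1 and Plcz1 had no count, Plch1 at most 1, Plch2 at most 5 and Plcl1 at most 14 in any library. In edgeR, 0 of the 2 tested genes passed the adjusted threshold, 1 was lower at an unadjusted p under 0.05, and DESeq2 called 0 of 3. Of all genes tested, 4.14% were higher and 2.73% lower by the adjusted threshold, and 13.4% were lower at an unadjusted p under 0.05. DESeq2 called 6.21% higher and 6.14% lower.

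The genes around Plcb2 on chromosome 2 were examined as well. Of the 3 protein-coding genes on each side, Ankrd63 stood out with 55, 47 and 57 counts in the Meis1-OE cultures and 0 in every YFP-CTRL library. Against a floor of 3 counts per library it was at least 15.2-fold higher. Ankrd63 (chr2:118699103-118703963, GRCm38.p6) lies on the minus strand like Plcb2. In the direction of transcription its span begins 1039 bases beyond the 3′ end of Plcb2. Its mean of 1.16 CPM compares with 17.5 CPM for Plcb2 in Meis1-OE EC, and whether its reads come from transcripts of its own was not tested. The next genes showed no such pattern. Inafm2 and Ccdc9b both lie on the side of Plcb2 away from Ankrd63. Inafm2 was at 39.3 and 37.6 CPM on average in Meis1-OE and control EC (edgeR adjusted p = 0.775). Ccdc9b was at 63.0 ± 4.08 and 90.7 ± 14.6 CPM (edgeR adjusted p = 0.0736). Bub1b, a mitotic kinase, was counted 170, 629 and 1861 times in the control cultures and was at 39.8 ± 1.20 CPM in Meis1-OE EC. Pak6 and Phgr1 never exceeded 4 counts.

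The genes whose profile over the 6 libraries was most like that of Plcb2 were Rspo3, Gbp10, Gsta3, Mal and Stra6. Their root mean square differences from Plcb2, in log2 CPM after centring each gene on its mean, were 0.36, 0.40, 0.47, 0.50 and 0.51. All share with Plcb2 a near absence in control EC and a lower level in Meis1-OE library A than in B and C. Mal was at 65.3, 94.3 and 82.8 CPM in the Meis1-OE cultures and at 0.719 ± 0.387 CPM in control EC. Rspo3 and Stra6 had no count in any YFP-CTRL library and were at least 79.6-fold and 99.9-fold higher in Meis1-OE EC against the floor of 3 counts per library. Gbp10 and Gsta3 belong to multigene families, so their values are uncertain.

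The rest of the pathway was followed through 9 lists of 141 genes, of which 95 passed the filter. Of these, 6 rose and 2 fell by the same edgeR threshold (6.32% and 2.11% of those tested), against 4.14% and 2.73% of all genes tested. Oxtr and Hrh1, 2 of the 6, passed the filter on low counts only through the Meis1-OE libraries, so the share that rose cannot be read against the background, and with at least 10 counts in every library 3 of 89 rose and 2 fell. At an unadjusted p under 0.05 the counts were 13 and 21 of 95, against 12.8% and 13.4% of all genes, and DESeq2 called 8 and 10 of 101, against 6.21% and 6.14%. These shares of all genes are the background for each list that follows. The median log2 fold change was -0.14, against 0.01 for all tested genes. The counts moved when single libraries were left out, and so did those of all genes tested (665 higher and 438 lower). Without Meis1-OE library A, B or C, 329, 115 and 126 of all genes rose and 68, 16 and 18 fell. Without YFP-CTRL library B these were 204 and 66, and without YFP-CTRL library C 2717 and 2498. Among the pathway genes, 1, 0 and 0 rose and 1, 0 and 0 fell without Meis1-OE library A, B or C. Without YFP-CTRL library B 0 pathway genes rose and 1 fell. Without YFP-CTRL library A 4 rose and 4 fell, and without YFP-CTRL library C 13 rose and 28 fell. With the proliferation score as covariate 1 rose and 4 fell.

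Receptors that signal through Gq, the inputs of the beta isoforms, had 3 of 9 tested genes higher and 0 lower in edgeR (4.14% and 2.73% of all genes). At an unadjusted p under 0.05 the counts were 4 and 0, and DESeq2 called 3 and 0 of 10. The remaining 17 of the 26 listed receptors did not pass the filter, and Oxtr and Hrh1 passed it only through the Meis1-OE libraries, so the count of 3 is no measure of the whole list. Oxtr and Hrh1 are therefore described without a test. Oxtr, the oxytocin receptor, was counted 48, 223 and 312 times in the Meis1-OE cultures and 1, 2 and 5 times in the control cultures (log2 fold change 5.95). F2r, the thrombin receptor PAR1, rose from 4.27, 7.28 and 14.7 CPM in the control cultures to 47.6 ± 7.35 CPM in Meis1-OE EC, a log2 fold change of 2.44 (standard error 0.42, edgeR adjusted p = 0.0201). With the proliferation score as covariate, F2r was at 1.67 (edgeR adjusted p = 0.00870) and Oxtr at 5.14. Hrh1, the histamine H1 receptor, was counted at most 23 times in a Meis1-OE library and at most 5 times in a YFP-CTRL library (log2 fold change 1.94). Chrm3, a muscarinic receptor and the gene of the list with the highest mean CPM, was at 149 ± 4.48 and 103 ± 20.7 CPM in Meis1-OE and control EC, with an edgeR adjusted p of 0.0897.

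Of the Gq-class proteins and their regulators, 1 of 7 tested genes rose and 1 fell, and both encode RGS proteins, which speed up the return of G proteins to the inactive state. Rgs2, which acts on Gq, fell from 32.0 ± 7.96 CPM in the controls to 10.9 ± 0.125 CPM under Meis1, a log2 fold change of -1.55 (standard error 0.19, edgeR adjusted p = 0.00762). Rgs3 rose from 40.6 ± 12.1 to 82.3 ± 10.9 CPM, a log2 fold change of 1.02 (edgeR adjusted p = 0.0414), and was at 0.61 with the score as covariate (edgeR adjusted p = 0.0836). Rgs2 still passed with that covariate, at -1.31 (edgeR adjusted p = 0.0249). Gnaq, the Gq alpha subunit and the gene of the list with the highest mean CPM, was at 250.1 ± 16.9 and 281 ± 22.1 CPM in Meis1-OE and control EC, with an edgeR adjusted p of 0.370. Gna15, the Gq-class alpha subunit of blood cells, did not exceed 6 counts in any library, and Gna14 had none.

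Upstream of the gamma isoforms, 0 of 14 tested receptors, kinases and adaptors passed in edgeR, with 2 higher and 5 lower at an unadjusted p under 0.05 and 2 higher and 4 lower in DESeq2. Kdr, the main VEGF receptor and the gene of the list with the highest mean CPM, was at 319 ± 53.8 CPM in Meis1-OE EC against 751 ± 293 CPM in control EC, a log2 fold change of -1.23 with an edgeR adjusted p of 0.0504. Several kinases and adaptors known from blood cells were at low counts, with at most 9 in any library for Syk and Blnk, 2 for Sh2d2a, 1 for Btk and 27 for Lcp2. Lat, an adaptor of T cells and platelets, was counted 40, 50 and 44 times in the Meis1-OE cultures. In the control cultures it was counted 18, 6 and 11 times, without overlap (log2 fold change 1.69). YFP-CTRL library B fell short of the filter on low counts, so Lat passed it only with the Meis1-OE libraries. Lat is therefore described without a test, although it is among the genes counted as higher at an unadjusted p under 0.05. Tec, a kinase of the same family as Btk, was counted 95, 108 and 111 times and 70, 130 and 195 times.

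Among the genes that supply PIP2, 2 of 17 rose and 0 fell in edgeR, with 2 and 3 at an unadjusted p under 0.05 and 2 and 1 in DESeq2. Pip4k2a and Pip5k1b, a kinase each of the type II and type I families, had log2 fold changes of 0.76 (edgeR adjusted p = 0.0213) and 0.74 (edgeR adjusted p = 0.0494). Pip4k2a was at 28.5 ± 1.12 against 16.9 ± 2.14 CPM and Pip5k1b at 15.4 ± 1.99 against 9.21 ± 1.46 CPM. Neither passed with the score as covariate (adjusted p = 0.0605 and 0.157 from edgeR). Pitpna, a lipid transfer protein and the gene of the list with the highest mean CPM, was at 372 ± 10.5 and 315 ± 90.2 CPM.

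Downstream of PLC, 4 lists were followed. Of all genes tested, 4.14% rose and 2.73% fell in edgeR, and 12.8% and 13.4% did so at an unadjusted p under 0.05. Of 19 tested genes of the DAG branch, 0 rose and 1 fell in edgeR, with 2 and 6 at an unadjusted p under 0.05 and 0 and 2 in DESeq2. The gene that fell was Prkd1, which encodes protein kinase D1, from 8.79 ± 0.782 to 4.91 ± 0.814 CPM, a log2 fold change of -0.84 (edgeR adjusted p = 0.0380, 0.0940 with the covariate). Of 13 tested IP3 receptor and calcium genes 0 passed in edgeR (1 higher and 2 lower at an unadjusted p under 0.05, 0 and 1 in DESeq2), and of 6 IP3 kinases and phosphatases 0 passed (1 and 1 unadjusted, 0 and 0 in DESeq2). Of 8 calcineurin and NFAT genes 0 passed in edgeR (0 and 1 unadjusted, 0 and 0 in DESeq2). The genes of these 4 lists with the highest mean CPM over all 6 libraries were Prkd3 at 159 ± 12.8 and 170.1 ± 18.9 CPM, Atp2a2 at 474 ± 36.8 and 647 ± 185 CPM, Inpp5a at 79.9 ± 5.33 and 58.7 ± 6.54 CPM, and Ppp3ca at 149 ± 9.70 and 196 ± 38.2 CPM in Meis1-OE and control EC. Rasgrp3 of the DAG list, at 132 and 186 CPM, was above Prkd3 in control EC. Itpr3, the IP3 receptor gene with the highest mean CPM, was at 367 ± 14.8 and 413 ± 40.6 CPM.

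**Figure D5:**
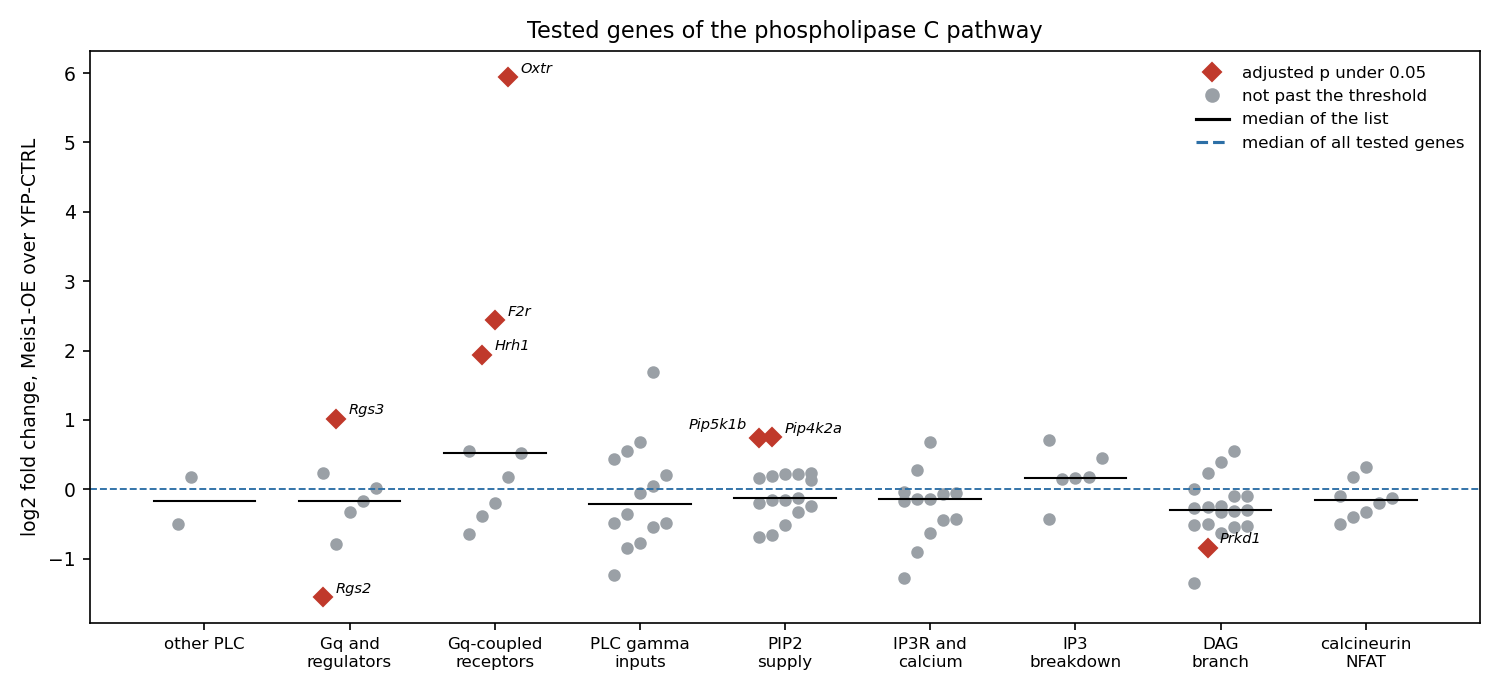
Log2 fold change of Meis1-OE over YFP-CTRL EC for the 95 tested pathway genes in 9 lists, with genes past an adjusted p of 0.05 (edgeR) as red diamonds, other genes as grey points, the median of each list as a black line and that of all tested genes (0.01) as a dashed line. The 8 genes past the threshold lie in 4 of the lists, from Rgs2 at -1.55 to Oxtr at 5.95. Oxtr and Hrh1 passed the filter on low counts only through the Meis1-OE libraries.

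Markers of the cell types in which Plcb2 is best known were measured beside it. Of 14 leukocyte markers, C1qa, C1qb and Tyrobp had no count, 7 of the 14 had at most 3 counts in every library, and Ptprc and Spi1, which define the lineage, had at most 4 and 1. The summed level of this list was 90.6 to 99.8 CPM in Meis1-OE and 58.4 to 123 CPM in YFP-CTRL libraries, and nearly all of it was Hcls1 (93.4 and 94.8 CPM). Csf1r was counted 15, 26 and 18 times in the Meis1-OE cultures and 1, 4 and 12 times in the control cultures, and Lyz2 6, 40 and 37 times and 8, 8 and 7 times. Both had a log2 fold change of 1.63, and Lyz2, like Plcb2, was lowest of the Meis1-OE cultures in library A. Csf1r passed the filter on low counts only through the Meis1-OE libraries. Lyz2 would not have passed it on the YFP-CTRL libraries alone, so both are described without a test. Of 6 platelet and megakaryocyte markers, Gp9 was counted 35, 46 and 54 times in the Meis1-OE cultures and 0, 2 and 8 times in the control cultures, and passed the filter on low counts only through the former. Itga2b was at 1.73 and 1.91 CPM and Pf4 at 0.379 and 0.476 CPM in Meis1-OE and control EC, both with overlap. Ppbp and Gp1bb had at most 5 counts and Gp6 at most 2, and the sum was 2.79 to 3.72 against 2.18 to 3.17 CPM. The 5 taste and tuft cell markers summed to at most 1.13 CPM in any library, with at most 1 count of Gnat3 and Gng13 and at most 15 of Trpm5. The part of these levels in the Plcb2 values was not tested.

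All 10 endothelial markers were counted in every library, with sums of 3418 to 4246 CPM in Meis1-OE and 4520 to 6234 CPM in YFP-CTRL libraries. Vwf was higher (log2 fold change 3.12, edgeR adjusted p = 0.0120) and Tek lower (-0.78, edgeR adjusted p = 0.0351), and the other 8 did not pass. The 10 smooth muscle and fibroblast markers summed to 4.03 to 6.06 CPM in Meis1-OE libraries and to 1.68, 5.10 and 23.2 CPM in the control cultures, with no count of Lum. The part of the Gp9, Vwf and smooth muscle values in the PLC results was not tested.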

How the data were processed

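Ribodepleted total RNA of 3 Meis1-OE and 3 YFP-CTRL cultures was sequenced. The authors deposited estimated counts per gene symbol, not normalized. The build is mm10 per the submitters' processing notes; aligner and counting tool are not given in the sources used here. The authors compared the conditions with DESeq2. Conditions came from the labels. The table's columns carry letters that no label explains.

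Counts were rounded and analysed in R 4.3.3 with edgeR 4.0.16 (filterByExpr, TMM, quasi-likelihood test, Benjamini-Hochberg adjustment over 16065 genes, threshold 0.05), limma 3.58.1 and DESeq2 1.42.0. Plots used Python 3.11.15 (matplotlib 3.10.9). Standard errors were derived from the F statistic. Values at or under 3 counts in a library were treated as the floor. The intervals and the floor hold counting error only: PCR copies of a molecule cannot be recognised here. The scripts were tested on simulated counts. Exon lengths came from GENCODE vM1 (NCBIM37), which is not the build of the counts, and positions and start-site windows from RefSeq (GRCm38.p6).

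The members and lists were chosen with earlier results of these data known. Named genes were all PLC genes, pathway genes past the threshold (at most 5 per direction and list, mean of at least 1 CPM) with the gene of highest mean CPM of each list, the 5 profiles nearest to Plcb2 and its 3 protein-coding neighbours on each side. Hrh1 (mean under 1 CPM), single genes at low counts, Lat, Tec, Rasgrp3, Itpr3 and single markers were named after their values were seen. Alternatives were other scalings, filters, fits, thresholds, DESeq2, a replicate block by column letter, the proliferation score as a covariate, each library left out and, chosen after seeing the data, another exon length. Protein sequences were not used here.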

Additional observations from a re-analysis of the deposited data

How the results depend on the processing

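The main counts were 1 of 7 PLC genes higher and 0 lower, and 6 pathway genes higher and 2 lower. Among the 6, Oxtr and Hrh1 passed the filter on low counts only through the Meis1-OE libraries. At an adjusted p under 0.01 the counts were 0 and 0, and 0 and 1. At an adjusted p under 0.1 the counts were 2 and 1, and 10 and 13. On library totals 2 PLC genes were higher and 1 pathway gene lower. With at least 10 counts in every library 3 pathway genes were higher. DESeq2 called 1 PLC gene and 10 pathway genes lower. With the proliferation score as a covariate 1 pathway gene was higher and 4 were lower, and Plcd1 and Plcd3 changed sign (log2 fold changes of -0.11 and 0.072). Over the fits without a single library, the counts ran from 0 to 3 PLC genes higher, 0 to 1 lower, 0 to 13 pathway genes higher and 0 to 28 lower. DESeq2 size factors, no filter and the robust fit kept each count within 1.5 times. Over all genes, the 665 higher and 438 lower became 1128 and 1115 with DESeq2, 377 and 307 with the covariate, and between 115 and 2717 higher and 16 and 2498 lower without a single library. The mean share of Plcb2 in PLC beta transcripts of Meis1-OE EC, 9.40%, was 11.5% without division by length, 10.9% with the longest transcript, 8.64% to 10.8% without a single library, and 3.58% among all 15 PLC and PLC-like genes, a wider set by construction. With at least 10 counts in every library Plcb2 was removed and gave no value.

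Whether the column letters pair the libraries is not known, and the correlations below cannot settle it. Correlations of same-letter deviations from the group means were 0.267 for A, 0.120 for B and 0.0697 for C (across genes, which are not independent replicates). Meis1-OE libraries A and B correlated best with the YFP-CTRL library of the same letter, and Meis1-OE library C with YFP-CTRL library B (0.214). A replicate block by letter gave 1 PLC gene higher and 0 lower, 4 pathway genes higher and 1 lower, and 544 higher and 189 lower over all genes. Counts near the floor, such as those of Hrh1, Plcd4 and Gna15, limit what these depths can show.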
